A study of Saccharomyces cerevisiae with 30 samples.

Results

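The genes described here are 9 noncoding RNA genes of budding yeast: the small nucleolar RNA (snoRNA) genes *SNR4*, *SNR11*, *SNR13*, *SNR33*, *SNR41*, *SNR67* and *SNR128*, the gene of the RNase P RNA, *RPR1*, and the gene of the telomerase RNA, *TLC1*. They were chosen as listed genes whose probe sets on the Affymetrix Yeast S98 array carry that 1 gene name, which gave 10 probe sets, of which *TLC1* has 2, among 5656 genes with such a probe set. All 9 passed the filter on dim genes, which is set on the mean over all 30 arrays and left 4242 genes.

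Small nucleolar RNAs guide the chemical modification of ribosomal RNA in the nucleolus. Those with boxes C and D direct the methylation of riboses, and those with boxes H and ACA direct the conversion of uridine to pseudouridine, each within a particle of shared core proteins. RNase P is a ribonucleoprotein enzyme that cuts the leader from precursor tRNAs, and telomerase is a reverse transcriptase whose RNA carries the template for telomere repeats. RNA polymerase II makes *TLC1* and most snoRNAs, whereas RNA polymerase III makes *RPR1*. The labelling protocol named in the labels starts from total RNA and, as such kits generally do, primes on poly(A) tails. Mature snoRNAs and the RNase P RNA carry no such tail. Their signal may come from tailed precursors or processing intermediates as well as from the mature RNA, and these cannot be told apart here. Which form of the *TLC1* RNA gave its signal was not tested either.

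The study asked how Rad4 ubiquitination and Rad23, proteins of nucleotide excision repair, bear on transcription after UV. All strains were BY4742 cells, which lack chromosomal *RAD7* per the study's methods and carry a pRS313 plasmid per the labels. The pRAD7 strain holds wild-type *RAD7* on that plasmid and is the control, the psocs strain holds *RAD7* with point mutations in its SOCS box, and in the pRAD7 Δrad23 and psocs Δrad23 strains *RAD23* was in addition replaced by *URA3*. Each strain was sampled untreated and at 15 min and 60 min after UV at 100 J/m2, so *RAD7* came from a plasmid and UV was given in all of them. The pRAD7 and psocs groups have 3 arrays each and the Δrad23 groups 2 each, 12 groups in all. The labels call the replicates biological without saying whether they were separate cultures, and each p-value therefore reflects the variation among these arrays and may be technical.

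The strain labels were borne out by the deleted gene: the deposited *RAD23* signal was between 605 and 1572 on the 18 arrays of strains with the gene and at most 4.40 on the 12 others. *RAD7* read between 242 and 1167 with the pRAD7 plasmid and between 17.4 and 54.2 with the psocs plasmid. Strains with the psocs plasmid thus differed in *RAD7* signal as well as in the SOCS box, and the reason was not tested. Alpha-type genes were bright on every array (*SAG1* at 2359 or above) while the a-type genes *STE2*, *BAR1*, *AGA2* and *MFA1* read at most 168 and *MFA2* at most 293, in cells of a mating type alpha strain. At 15 min, array 2 of pRAD7 Δrad23 and array 1 of psocs Δrad23 stood apart with a low stress response, with *HSP12* at 1282 and 1355 where the other array of each group had 8261 and 9384. Signals given below are centred: each array was brought to the same median. Changes are log2 differences between group means, with the standard error of the limma fit, and a gene is called where the Benjamini-Hochberg adjusted p over the 4242 genes was under 0.05. Without the centring the median change of all genes rose, from -0.11 to 0.16 at 60 min in pRAD7 and from -0.06 to 0.14 in psocs, and fell in the Δrad23 strains, from 0.08 to -0.07 in pRAD7 Δrad23 and from 0.04 to -0.06 in psocs Δrad23. A lower signal can mean less of an RNA per cell or a smaller share of it in the labelled RNA, and these cannot be told apart.

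At 15 min few of the 9 genes moved. At 60 min *SNR13* and *TLC1* fell in all 4 strains, *SNR33* fell in pRAD7 and psocs, *SNR128* in these and in psocs Δrad23, and *SNR67* in pRAD7, while *RPR1* and *SNR11* rose in both Δrad23 strains. At 15 min limma called 2 members higher in pRAD7 (*SNR11* and *TLC1*), where 23.2% of all tested genes were called higher, 1 in psocs (*TLC1*; 21.5% of all genes) and 1 in psocs Δrad23 (*SNR11*; 10.2%). None was called in pRAD7 Δrad23, where 14.8% of genes were called either way, and none had an unadjusted p under 0.05 there. At 60 min 5 members were called lower in pRAD7 (*SNR13*, *SNR33*, *SNR67*, *SNR128* and *TLC1*), against 36.1% of all genes called lower and 28.7% called higher. In psocs 4 were called lower (the same genes without *SNR67*), against 34.0% lower and 30.8% higher. In pRAD7 Δrad23 2 were called higher (*SNR11* and *RPR1*; 32.6% of all genes) and 3 lower (*SNR13*, *SNR41* and *TLC1*; 28.2%). In psocs Δrad23 2 were called higher (*SNR11* and *RPR1*; 31.2%) and 3 lower (*SNR13*, *SNR128* and *TLC1*; 28.8%). The median change of the 9 members at 60 min was -0.69 in pRAD7 and -0.55 in psocs, beside -0.11 and -0.06 over all tested genes, and it was -0.14 in pRAD7 Δrad23 and 0.08 in psocs Δrad23, beside 0.08 and 0.04. Read against these shares, 4 or 5 calls among 9 genes are no result about the group, and the single genes and the sizes of their changes follow.

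**Figure D1:**
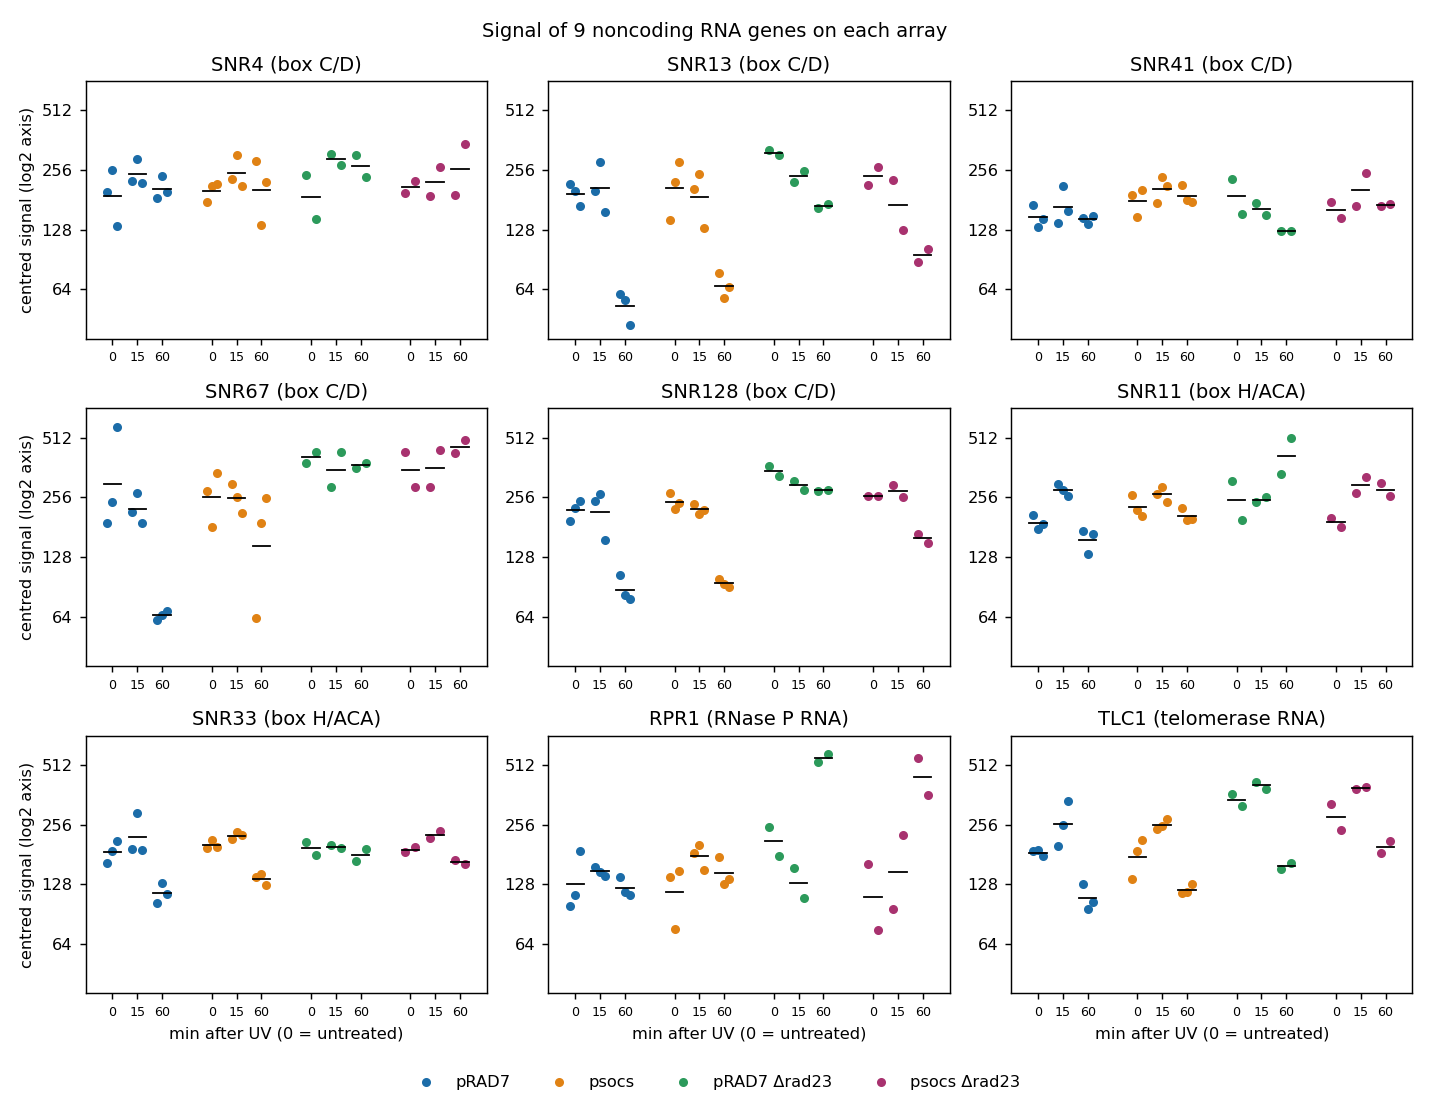
Centred signal (log2 axis) of each of the 9 genes on every array, by strain and by minutes after UV, with 0 for untreated cells; each point is 1 array and the black bar is the group's mean of log2 values. *SNR13*, *SNR67* and *SNR128* drop at 60 min in pRAD7, and *RPR1* stands at 362 to 581 at 60 min in the Δrad23 strains.

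**Figure D2:**
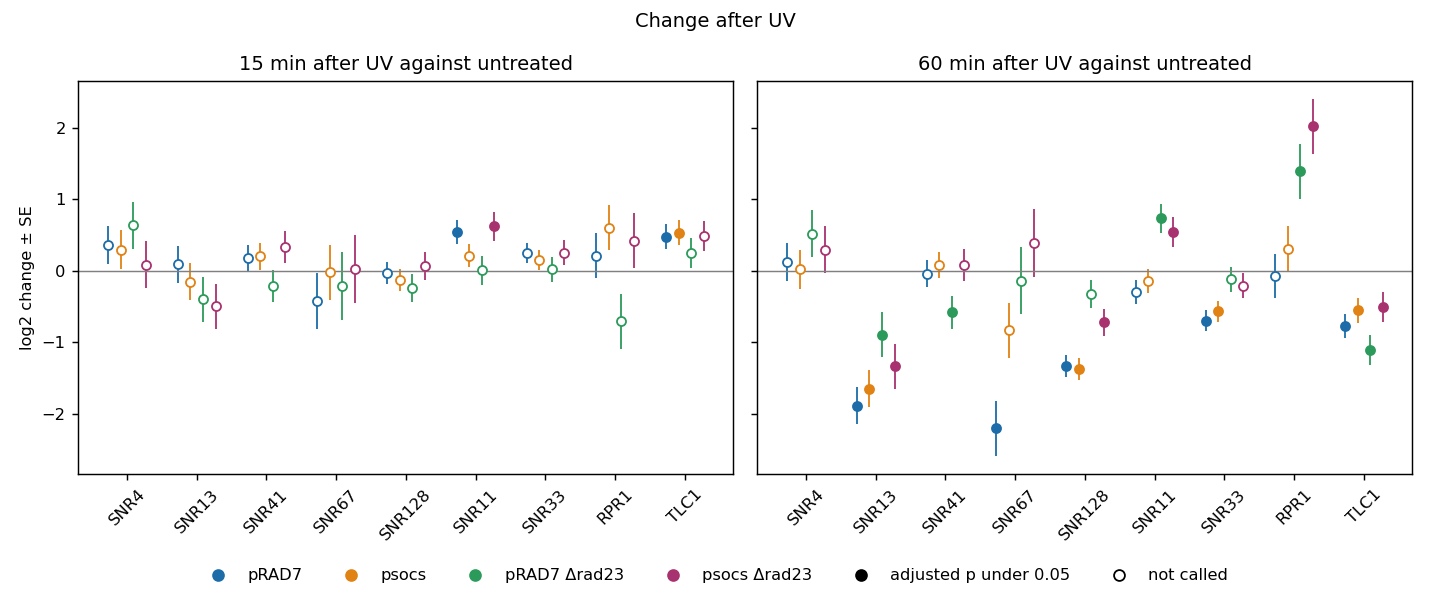
Log2 change against untreated cells of the same strain at 15 min (left) and 60 min (right), with bars of 1 SE; filled points were called at an adjusted p under 0.05 and open ones were not. At 60 min *RPR1* is higher in both Δrad23 strains (1.39 and 2.02), while *SNR13* is lower in all 4 strains (-1.89 to -0.90).

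Among the box C/D snoRNAs, *SNR13*, a guide for methylation of the large ribosomal RNA, fell in every strain at 60 min. In pRAD7 its signals were 217, 200 and 169 untreated, 200, 281 and 158 at 15 min, and 60.8, 56.5 and 42.5 at 60 min. In psocs they were 143, 224 and 280 untreated, 205, 246 and 130 at 15 min, and 77.2, 57.7 and 65.6 at 60 min. The 60 min arrays lay below all untreated and 15 min arrays in both strains, which is a fall of 1.89 ± 0.26 in pRAD7 (3.70-fold, adjusted p = 1.02e-06) and of 1.65 ± 0.26 in psocs (3.13-fold, adjusted p = 6.28e-06). In pRAD7 Δrad23 the gene went from 324 and 304 untreated through 224 and 253 at 15 min to 164 and 173 at 60 min. In psocs Δrad23 it went from 216 and 266 through 227 and 127 to 88.3 and 102. Again no 60 min array overlapped an untreated one, with changes of -0.90 ± 0.31 (adjusted p = 0.0174) and -1.34 ± 0.31 (adjusted p = 0.000888). The call in pRAD7 Δrad23 was lost without its untreated array 1 (-0.85, adjusted p = 0.0738) and without its 60 min array 1 (-0.86, adjusted p = 0.073) or 2 (-0.93, adjusted p = 0.0543).

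*SNR128* encodes U14, a box C/D RNA needed for processing of the small ribosomal RNA and essential for growth. Its signals in pRAD7 were 194, 226 and 245 untreated, 245, 266 and 156 at 15 min, and 104, 82.2 and 78.7 at 60 min. In psocs they were 270, 224 and 239 untreated, 236, 210 and 222 at 15 min, and 98.7, 93.4 and 90.6 at 60 min. The level was flat at 15 min and then fell, with no overlap between the 60 min arrays and the others, by 1.33 ± 0.16 in pRAD7 (2.52-fold, adjusted p = 1.31e-07) and 1.37 ± 0.16 in psocs (2.58-fold, adjusted p = 7.58e-08). In pRAD7 Δrad23 *SNR128* read 367 and 329 untreated, 311 and 279 at 15 min, and 275 and 280 at 60 min. In psocs Δrad23 it read 261 and 262 untreated, 294 and 256 at 15 min, and 166 and 151 at 60 min. The fall was called in psocs Δrad23 (-0.72 ± 0.19, adjusted p = 0.00261) and not in pRAD7 Δrad23 (-0.33 ± 0.19, adjusted p = 0.146), where the 95% interval ran from -0.72 to 0.07. As deposited, without centring, the change in pRAD7 Δrad23 was called (-0.47, adjusted p = 0.0358).

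*SNR67*, a further box C/D guide for the large ribosomal RNA, had the largest fall of the 9 genes in pRAD7 and the widest spread between arrays. In pRAD7 its signals were 190, 244 and 583 untreated, 217, 270 and 191 at 15 min, and 61.9, 65.5 and 68.1 at 60 min. The 60 min arrays were tight and far below the rest, a change of -2.20 ± 0.39 (4.61-fold, adjusted p = 3.03e-05). In psocs the values were 276, 182 and 339 untreated, 299, 258 and 212 at 15 min, and 63.2, 190 and 254 at 60 min. Only array 1 at 60 min was at the pRAD7 level there, and it also had the lowest 3' to 5' ratio of the *ACT1* control probe sets (0.773, all other arrays from 1.07 to 1.37), whose part in this was not tested. The groups overlapped, and the change of -0.83 ± 0.39 was not called (adjusted p = 0.0645). It was called with the replicate number as a block (adjusted p = 0.0489), and in psocs the untreated and 60 min arrays of 1 number did deviate together. It was also called without the untreated array 2 (-1.08, adjusted p = 0.033) and without the 60 min array 2 (-1.02, adjusted p = 0.0455) or 3 (-1.24, adjusted p = 0.0103). The Δrad23 strains kept high values at 60 min: 361 and 383 against 384 and 434 untreated in pRAD7 Δrad23 (-0.14 ± 0.47), and 427 and 500 against 434 and 287 in psocs Δrad23 (0.39 ± 0.47). At 15 min these strains read 288 and 433, and 290 and 444. Neither 60 min change was called, and their 95% intervals, from -1.12 to 0.85 and from -0.59 to 1.37, did not reach the change seen in pRAD7.

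The remaining box C/D genes moved little. *SNR4*, which guides acetylation of the small ribosomal RNA, ranged from 134 to 348 over all arrays and was called in no comparison; its largest change after UV was 0.64 ± 0.33 at 15 min in pRAD7 Δrad23 (adjusted p = 0.203). In pRAD7 it read 198, 255 and 134 untreated, 225, 292 and 219 at 15 min, and 184, 240 and 198 at 60 min, and in psocs 176, 211 and 218, then 231, 305 and 213, then 283, 134 and 222. In pRAD7 Δrad23 it read 241 and 144, then 308 and 273, then 305 and 235, and in psocs Δrad23 196 and 226, then 189 and 264, then 192 and 348. The groups overlapped except at 15 min in pRAD7 Δrad23, where both arrays lay above the untreated ones. The 95% interval at 60 min in pRAD7, from -0.44 to 0.68, allows a change of up to about that size. *SNR41*, a guide for methylation of the small ribosomal RNA, had the narrowest range of the 9, from 126 to 248. In pRAD7 it read 170, 132 and 144 untreated, 138, 213 and 159 at 15 min, and 146, 136 and 151 at 60 min, and in psocs 191, 148 and 203, then 174, 237 and 212, then 214, 180 and 176. In psocs Δrad23 it read 177 and 147, then 168 and 248, then 168 and 173, and these groups overlapped within each strain. It was called once, at 60 min in pRAD7 Δrad23, where it read 126 on both arrays against 231 and 153 untreated and 175 and 151 at 15 min (-0.58 ± 0.23, adjusted p = 0.0314). That call was lost without the untreated array 1 (-0.28, adjusted p = 0.37), without the 60 min array 1 (-0.58, adjusted p = 0.0955) or 2 (-0.59, adjusted p = 0.0933), and in a fit to the compared groups alone (adjusted p = 0.0655).

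The 2 box H/ACA guides differed from each other. *SNR11*, which guides pseudouridine formation in the large ribosomal RNA, rose at 15 min in pRAD7 and psocs Δrad23, and at 60 min in both Δrad23 strains. In pRAD7 its signals were 209, 177 and 188 untreated, 299, 278 and 260 at 15 min, and 172, 132 and 168 at 60 min. The 15 min arrays lay above the rest (0.54 ± 0.17, 1.46-fold, adjusted p = 0.0136), and the 60 min arrays were below every untreated one without a call (-0.29 ± 0.17, adjusted p = 0.131). In psocs the values were 262, 222 and 205 untreated, 268, 288 and 242 at 15 min, and 227, 198 and 199 at 60 min, with overlap and no call. In pRAD7 Δrad23 they were 311 and 198 untreated, 241 and 258 at 15 min, and 334 and 509 at 60 min, and in psocs Δrad23 202 and 182, then 270 and 324, then 302 and 259. Both Δrad23 strains were thus above their untreated arrays at 60 min, by 0.74 ± 0.20 (adjusted p = 0.00361) and 0.54 ± 0.20 (adjusted p = 0.0255), and psocs Δrad23 already at 15 min by 0.62 ± 0.20 (adjusted p = 0.0392).

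Each of these *SNR11* calls was lost when certain single arrays were left out. In pRAD7 at 15 min the change stayed nearly as large but was not called without the untreated array 2 (0.49, adjusted p = 0.0548) or the 15 min array 1 (0.49, adjusted p = 0.0564). In pRAD7 Δrad23 at 60 min it was lost without the untreated array 2 (0.41, adjusted p = 0.132) or the 60 min array 2 (0.43, adjusted p = 0.126), and in a fit to the compared groups alone (adjusted p = 0.0572). In psocs Δrad23 the 15 min call was lost without the untreated array 1 (0.70, adjusted p = 0.0779) or 2 (0.55, adjusted p = 0.216), without the 15 min array 2 (0.49, adjusted p = 0.365), as deposited (0.48, adjusted p = 0.106), after quantile normalization (0.58, adjusted p = 0.0527) and with the compared groups alone (adjusted p = 0.158). The 60 min call there was lost without the untreated array 2 (0.47, adjusted p = 0.133) or the 60 min array 1 (0.43, adjusted p = 0.157), and as deposited (0.45, adjusted p = 0.0555).

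*SNR33*, which has the same kind of target, fell moderately in the strains with *RAD23*. Its signals in pRAD7 were 164, 188 and 212 untreated and 103, 130 and 115 at 60 min, and in psocs 195, 215 and 198 untreated and 139, 144 and 128 at 60 min. The groups did not overlap in either strain, with changes of -0.69 ± 0.14 (1.62-fold, adjusted p = 0.000183) and -0.57 ± 0.14 (1.48-fold, adjusted p = 0.00135). In pRAD7 Δrad23 the level was 211 and 181 untreated and 168 and 192 at 60 min, and in psocs Δrad23 186 and 197 untreated and 169 and 163 at 60 min. At 15 min *SNR33* was called in no strain, at 194, 294 and 191 in pRAD7, 216, 234 and 226 in psocs, 203 and 194 in pRAD7 Δrad23 and 220 and 237 in psocs Δrad23. Neither 60 min change in the Δrad23 strains was called (-0.12 ± 0.17 and -0.21 ± 0.17, 95% intervals from -0.48 to 0.24 and from -0.57 to 0.15).

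*RPR1*, the RNA subunit of RNase P, showed the largest rise of the 9 genes, and only strains without *RAD23* showed it at an adjusted p under 0.05. In pRAD7 Δrad23 the signal was 251 and 179 untreated, 154 and 109 at 15 min, and 532 and 581 at 60 min. In psocs Δrad23 it was 162 and 75.2 untreated, 95.8 and 228 at 15 min, and 554 and 362 at 60 min. All 4 of these 60 min arrays were above all 26 other arrays of the series, and the changes against untreated were 1.39 ± 0.38 (2.63-fold, adjusted p = 0.00338) and 2.02 ± 0.38 (4.06-fold, adjusted p = 0.000104). In pRAD7 *RPR1* read 99.7, 113 and 189 untreated, 156, 149 and 141 at 15 min, and 140, 117 and 113 at 60 min (-0.07 ± 0.31 at 60 min, adjusted p = 0.854). In psocs it read 140, 76.5 and 150 untreated, 184, 201 and 151 at 15 min, and 175, 129 and 136 at 60 min (0.31 ± 0.31, adjusted p = 0.396). Neither strain had a call at either time, though the 15 min arrays of psocs lay above its untreated ones (0.60 ± 0.31, adjusted p = 0.145).

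Other RNAs without a poly(A) tail, or with little of it, moved on the same arrays. The mean over 5 control probe sets for 18S ribosomal RNA (geometric, centred like the rest) was between 57.4 and 117 on untreated arrays, and 639 and 742 on the 60 min arrays of pRAD7 Δrad23 and 699 and 386 on those of psocs Δrad23. At 60 min it was 117 to 174 in pRAD7 and 134 to 243 in psocs. The median of 58 tRNA probe sets was 125 to 179 on untreated arrays, 411 and 509 at 60 min in pRAD7 Δrad23, 227 and 254 in psocs Δrad23, 112 to 123 in pRAD7 and 105 to 157 in psocs. In psocs Δrad23 the array with more *RPR1* signal, array 1, had more 18S signal, and slightly less tRNA signal. At 15 min the 18S signal was also up, at 187 to 509 in pRAD7 and psocs and 386 to 464 in the Δrad23 strains. The tRNA median was then 240 to 304 in pRAD7 and psocs and 175 to 234 in the Δrad23 strains, while *RPR1* stayed between 95.8 and 228. The ratio of the 3' to the 5' control probe set of *ACT1*, a sign of RNA quality, was 1.29 on both 60 min arrays of pRAD7 Δrad23 and 1.23 and 1.37 on those of psocs Δrad23, the last being the highest of all arrays, against 1.07 to 1.26 on the untreated Δrad23 arrays. On the 15 min arrays of all 4 strains the ratio was 1.235 to 1.36. The part of this ratio and of the ribosomal RNA and tRNA signal in the *RPR1* result was not tested.

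**Figure D3:**
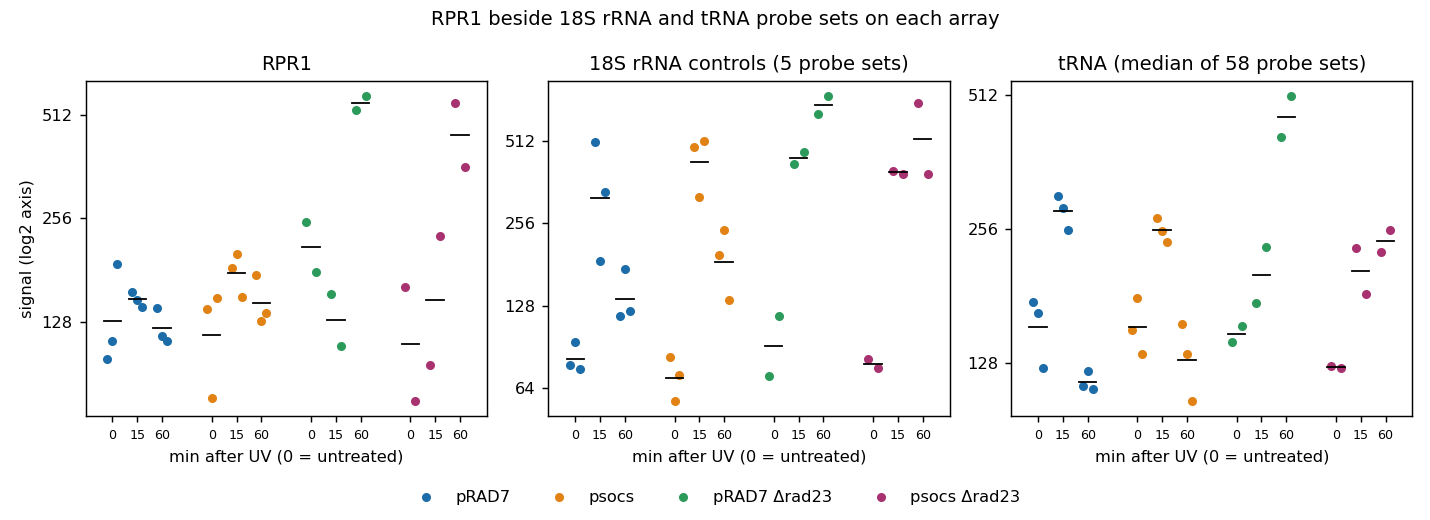
Signal (log2 axis) of *RPR1*, of the 18S ribosomal RNA control probe sets (geometric mean of 5) and of tRNAs (median of 58 probe sets) on each array, by strain and minutes after UV; black bars are group means of log2 values. The 60 min arrays of the Δrad23 strains are high for *RPR1* (362 to 581) and 18S (386 to 742), and at 15 min 18S is high while *RPR1* is not.

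*TLC1*, the RNA that telomerase copies into telomere repeats, fell in all 4 strains at 60 min on both of its probe sets. On the brighter probe set, which was used for the counts, pRAD7 read 189, 190 and 177 untreated, 199, 256 and 336 at 15 min, and 128, 95.9 and 104 at 60 min. In psocs it read 136, 188 and 215, then 243, 251 and 273, then 115, 117 and 129. The Δrad23 strains were higher throughout: pRAD7 Δrad23 read 366 and 317, then 421 and 388, then 154 and 163, and psocs Δrad23 327 and 240, then 389 and 399, then 184 and 211. No 60 min array overlapped an untreated array of its strain, and the changes were -0.77 ± 0.17 in pRAD7 (adjusted p = 0.000458), -0.55 ± 0.17 in psocs (adjusted p = 0.00724), -1.11 ± 0.21 in pRAD7 Δrad23 (adjusted p = 0.00011) and -0.51 ± 0.21 in psocs Δrad23 (adjusted p = 0.0418). The other probe set read 127, 107 and 107 at 60 min in pRAD7, 90.7, 126 and 134 in psocs, 154 and 142 in pRAD7 Δrad23 and 178 and 171 in psocs Δrad23. Its changes were -0.94 ± 0.15, -0.83 ± 0.15, -1.03 ± 0.18 and -0.76 ± 0.18, all called. The call on the brighter probe set in psocs was lost without the untreated array 3 (-0.41, adjusted p = 0.0598) and as deposited (-0.35, adjusted p = 0.0743), and that in psocs Δrad23 without the untreated array 1 (-0.29, adjusted p = 0.348), without the 60 min array 1 (-0.41, adjusted p = 0.199) or 2 (-0.61, adjusted p = 0.056), and with the compared groups alone (adjusted p = 0.0722).

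The rise of *TLC1* at 15 min depended on the probe set. On the brighter one it was 0.48 ± 0.17 in pRAD7 (1.39-fold, adjusted p = 0.0333) and 0.53 ± 0.17 in psocs (1.45-fold, adjusted p = 0.0203). On the other, where pRAD7 read 220, 204 and 230 untreated and 202, 239 and 280 at 15 min, it was 0.13 ± 0.15 (adjusted p = 0.521), and in psocs 0.27 ± 0.15 (adjusted p = 0.165), neither called. The call in pRAD7 was also lost without any of 5 of its 6 arrays, the exception being the 15 min array 1 (changes between 0.29 and 0.50, adjusted p between 0.0599 and 0.23), as deposited (0.36, adjusted p = 0.102), after quantile normalization (0.44, adjusted p = 0.051) and with the compared groups alone (adjusted p = 0.0707). In psocs it was lost without the untreated array 1 (0.35, adjusted p = 0.144) or the 15 min array 3 (0.49, adjusted p = 0.0648), as deposited (0.44, adjusted p = 0.052) and with the compared groups alone (adjusted p = 0.067).

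**Figure D4:**
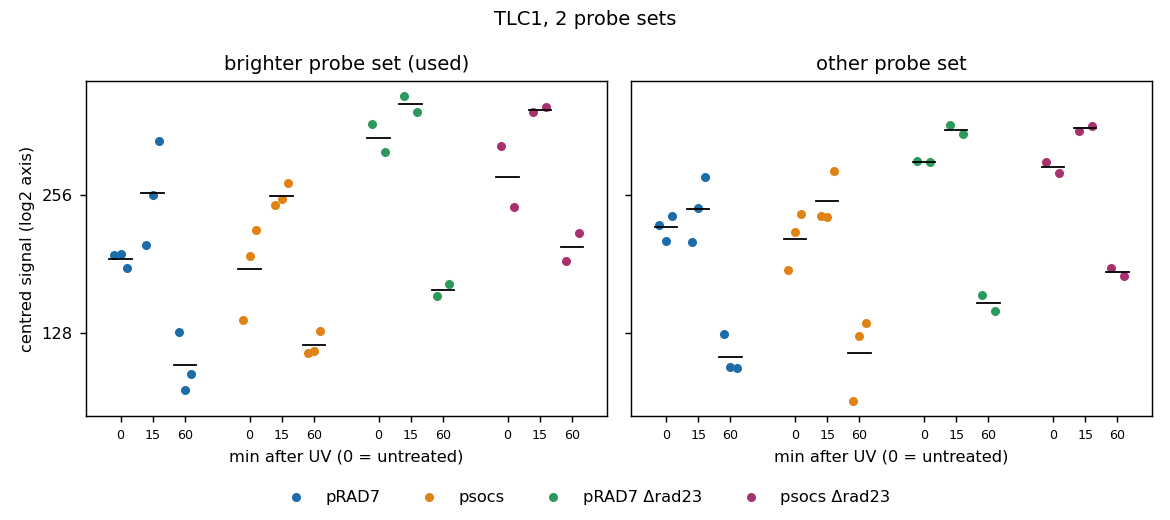
Centred signal (log2 axis) of the 2 *TLC1* probe sets on each array, by strain and minutes after UV; black bars are group means of log2 values. Both probe sets are lowest at 60 min in every strain, while the 15 min rise in pRAD7 is 0.48 on the brighter one and 0.13 on the other.

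Between 15 and 60 min 6, 4, 3 and 5 of the 9 genes were called in pRAD7, psocs, pRAD7 Δrad23 and psocs Δrad23. In pRAD7 6 members were called lower (33.3% of all genes): *SNR13* (-1.98 ± 0.26), *SNR67* (-1.78 ± 0.39), *SNR128* (-1.31 ± 0.16), *TLC1* (-1.25 ± 0.17), *SNR33* (-0.94 ± 0.14) and *SNR11* (-0.83 ± 0.17), and none was called higher. In psocs 4 were called lower (32.1%): *SNR13* (-1.49 ± 0.26), *SNR128* (-1.24 ± 0.16), *TLC1* (-1.09 ± 0.17) and *SNR33* (-0.72 ± 0.14). Without the psocs 60 min array 3 *SNR67* joined them (-1.22, adjusted p = 0.0145). In pRAD7 Δrad23 *RPR1* (2.10 ± 0.38, adjusted p = 0.000133) and *SNR11* (0.73 ± 0.20) were called higher (20.5%) and *TLC1* lower (-1.35 ± 0.21; 24.0%), the *SNR11* call being lost without the 60 min array 2 (0.42, adjusted p = 0.174) and with the compared groups alone (adjusted p = 0.0647). In psocs Δrad23 *RPR1* was called higher (1.60 ± 0.38; 19.5%), and *TLC1* (-0.999 ± 0.21), *SNR13* (-0.84 ± 0.31), *SNR128* (-0.79 ± 0.19) and *SNR33* (-0.46 ± 0.17) lower (24.3%). There, without the 15 min array 1, which had the low stress response, *RPR1* (0.98, adjusted p = 0.0943), *SNR13* (-0.43, adjusted p = 0.414) and *SNR33* (-0.51, adjusted p = 0.0912) were no longer called. The *SNR13* call was further lost without the 60 min array 1 (-0.74, adjusted p = 0.149) or 2 (-0.95, adjusted p = 0.0725), the *SNR33* call without the 15 min array 2 (-0.40, adjusted p = 0.141) or the 60 min array 1 (-0.49, adjusted p = 0.0865) or 2 (-0.43, adjusted p = 0.14), and both with the compared groups alone (adjusted p = 0.0699 and 0.129).

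Without UV *TLC1* was the only member called between strains. Between psocs and pRAD7 no member was called by limma, none had an unadjusted p under 0.05, and 0.0236% of all genes were called. In pRAD7 Δrad23 against pRAD7 *TLC1* was called higher on its brighter probe set (366 and 317 against 189, 190 and 177; 0.88 ± 0.19, 1.84-fold, adjusted p = 0.0261), where 0.636% of genes were called higher, and the other probe set gave 0.48 ± 0.17 without a call (adjusted p = 0.136). This call was lost without the pRAD7 array 1 (0.89, adjusted p = 0.072) or 3 (0.85, adjusted p = 0.0658), without the pRAD7 Δrad23 array 1 (0.78, adjusted p = 0.321) and with the compared groups alone (adjusted p = 0.0871). *SNR128* (367 and 329 against 194, 226 and 245; 0.66 ± 0.17, adjusted p = 0.0675) and *SNR13* (324 and 304 against 217, 200 and 169; 0.69 ± 0.29, adjusted p = 0.22) did not overlap either but were not called, and as deposited *SNR128* was (0.67, adjusted p = 0.0445). *RPR1* read 251 and 179 against 99.7, 113 and 189, with overlap and no call. In this comparison the median change of the 9 members was 0.45, beside 0.08 over all tested genes. An unadjusted p under 0.05 was reached by 3 members and by 693 of all tested genes. In psocs Δrad23 no member was called against psocs (1 with an unadjusted p under 0.05, *TLC1* at 0.67 ± 0.19, adjusted p = 0.101; 1.04% of genes called) or against pRAD7 (1, *TLC1* at 0.60 ± 0.19, adjusted p = 0.162; 0.519%).

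The differences between strains in the UV response itself, that is the change in one strain minus the change in pRAD7, were tested as interactions. They share the pRAD7 arrays, so the 3 strains' differences are not independent of each other. At 15 min limma called no member and no gene at all (0% in psocs, pRAD7 Δrad23 and psocs Δrad23 alike), with 37, 144 and 143 genes but 0, 0 and 0 members at an unadjusted p under 0.05. At 60 min psocs differed from pRAD7 in no gene (0%; 35 genes and 1 member, *SNR67* at 1.37 ± 0.55, at an unadjusted p under 0.05). For the other 8 genes the interval of the psocs difference lay within -0.89 and 1.30. In pRAD7 Δrad23 4 members were called higher than in pRAD7, against 18.6% of all genes, and in psocs Δrad23 3, against 7.50%; none was called lower.

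*SNR67* had the largest such difference in both strains, 2.07 ± 0.61 in pRAD7 Δrad23 (4.19-fold, adjusted p = 0.0136) and 2.59 ± 0.61 in psocs Δrad23 (6.03-fold, adjusted p = 0.00973): it fell in pRAD7 and was near its untreated level without *RAD23*. *RPR1* followed with 1.46 ± 0.50 (2.76-fold, adjusted p = 0.0286) and 2.09 ± 0.50 (4.27-fold, adjusted p = 0.0098), here from a rise without *RAD23*. *SNR11* differed by 1.03 ± 0.26 (adjusted p = 0.00549) and 0.83 ± 0.26 (adjusted p = 0.0433). *SNR128* differed by 1.01 ± 0.25 in pRAD7 Δrad23 (adjusted p = 0.00394) and by 0.62 ± 0.25 without a call in psocs Δrad23 (adjusted p = 0.117). *SNR13* (0.99 ± 0.41, adjusted p = 0.0673) and *SNR33* (0.57 ± 0.23, adjusted p = 0.0574) were short of the threshold in pRAD7 Δrad23, and in psocs Δrad23 they differed by 0.55 ± 0.41 and 0.49 ± 0.23 without a call. *TLC1* (-0.33 ± 0.27 and 0.26 ± 0.27), *SNR4* (0.40 ± 0.43 and 0.17 ± 0.43) and *SNR41* (-0.54 ± 0.29 and 0.12 ± 0.29) were called in neither strain, and for *SNR4* the intervals were wide, from -0.49 to 1.28 and from -0.71 to 1.06. The difference between psocs Δrad23 and psocs was not tested.

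Several of these calls depended on an array or on the scaling. As deposited, where the median difference of all genes moved from 0.15 to -0.27 in pRAD7 Δrad23 and from 0.11 to -0.25 in psocs Δrad23, *SNR11* (0.61, adjusted p = 0.0735), *SNR128* (0.59, adjusted p = 0.0694) and *RPR1* (1.04, adjusted p = 0.092) were not called in pRAD7 Δrad23 and *SNR11* (0.47, adjusted p = 0.231) was not called in psocs Δrad23, while *SNR41* (-0.96, adjusted p = 0.00813, against -0.54 and 0.166 with centring) and *TLC1* (-0.75, adjusted p = 0.0359, against -0.33 and 0.371) were called lower in pRAD7 Δrad23. The *RPR1* call in pRAD7 Δrad23 was lost without the pRAD7 untreated array 3 (1.19, adjusted p = 0.0796), the pRAD7 60 min array 3 (1.40, adjusted p = 0.0548), the Δrad23 untreated array 2 (1.22, adjusted p = 0.117) and the Δrad23 60 min array 1 (1.53, adjusted p = 0.0595) or 2 (1.40, adjusted p = 0.0898). In psocs Δrad23 the *RPR1* call was lost without the untreated array 2 (1.54, adjusted p = 0.0795) or the 60 min array 1 (1.79, adjusted p = 0.0681), and the *SNR67* call without the untreated array 2 (2.29, adjusted p = 0.0532). *SNR11* was lost in pRAD7 Δrad23 without its untreated array 2 (0.70, adjusted p = 0.0599) or its 60 min array 2 (0.72, adjusted p = 0.0696), and in psocs Δrad23 without any of 8 of the 10 arrays compared, the exceptions being the pRAD7 untreated array 2 and 60 min array 1 (0.71 to 0.94, adjusted p between 0.0535 and 0.179). In psocs Δrad23 it was also just lost with no filter on dim genes (adjusted p = 0.0501), after quantile normalization (0.79, adjusted p = 0.0506) and with the compared groups alone (adjusted p = 0.052). *SNR33* was called in pRAD7 Δrad23 without the pRAD7 untreated array 1 (0.67, adjusted p = 0.0355) or 60 min array 2 (0.66, adjusted p = 0.0399) and after quantile normalization (0.59, adjusted p = 0.0468), and *SNR13* with the compared groups alone (adjusted p = 0.0149).

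**Figure D5:**
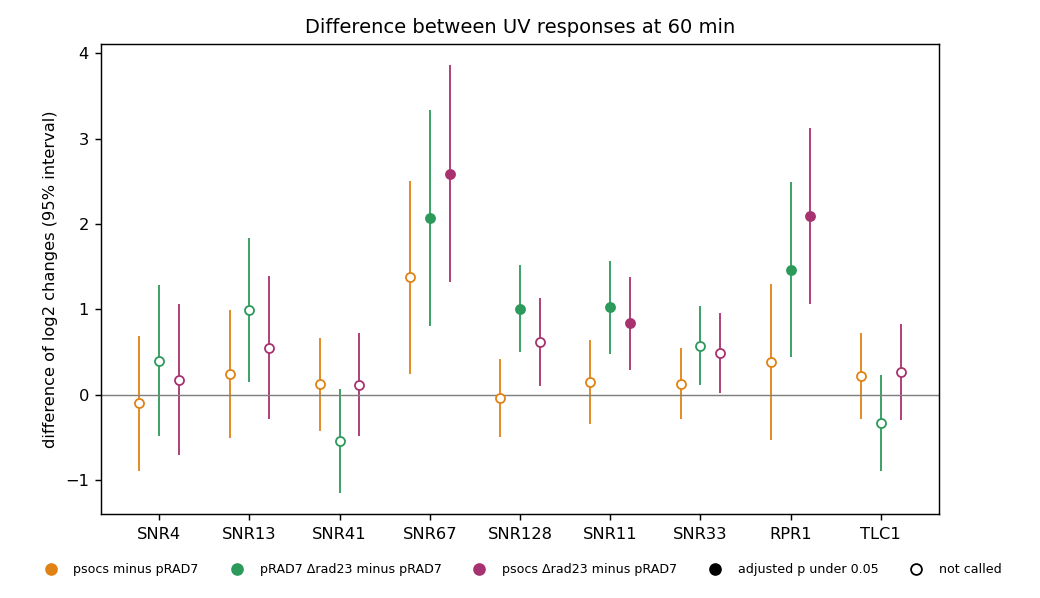
Difference of the log2 change at 60 min in each strain from that in pRAD7, with 95% intervals from limma, for the 9 genes; filled points were called at an adjusted p under 0.05. The calls are *SNR67*, *RPR1* and *SNR11* in both Δrad23 strains and *SNR128* in pRAD7 Δrad23, all above 0, and psocs has none.

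Of the 54 other snoRNA and small nuclear RNA genes with a probe set of their own, 9 passed the filter on dim genes. At 60 min 5 of these 9 were called lower and none higher in pRAD7 (median -1.02, from -1.96 to 0.11), and 5 lower and 1 higher in psocs (median -0.90). In pRAD7 Δrad23 5 were called lower and 1 higher, and in psocs Δrad23 5 lower and 2 higher, with a median of -0.67 in both. The shares of all genes called are those given above, and the medians over all genes at 60 min lay between -0.11 and 0.08. *SNR5*, a box H/ACA guide, and *SNR70*, a box C/D guide, were the ones called higher: *SNR5* rose in pRAD7 Δrad23 (1.76 ± 0.18) and psocs Δrad23 (1.24 ± 0.18), as *RPR1* and *SNR11* did, and *SNR70* in psocs (0.51 ± 0.19) and psocs Δrad23 (0.69 ± 0.23). Against pRAD7, the response at 60 min was called higher for 4 of the 9 in pRAD7 Δrad23 (median 0.70; 18.6% of all genes) and for 1 in psocs Δrad23 (median 0.57; 7.50% of all genes).

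The proteins that bind or process these RNAs were counted in the same way, in lists written from general knowledge. At 60 min the shares of all genes called lower were 36.1%, 34.0%, 28.2% and 28.8% in pRAD7, psocs, pRAD7 Δrad23 and psocs Δrad23, and those called higher 28.7%, 30.8%, 32.6% and 31.2%. Of the snoRNA core and assembly proteins most were called lower in pRAD7: of 17 listed, 13 were tested and 11 were called lower and none higher, with a median change of -1.25 beside -0.11 over all genes. *NOP1*, the methyltransferase of the box C/D particle, changed by -1.91 ± 0.18, *NAF1*, an assembly factor of box H/ACA particles, by -1.67 ± 0.19, the box H/ACA core protein gene *NHP2* by -1.63 ± 0.17 and *GAR1* of the same core by -1.52 ± 0.17. In psocs 11 of 13 were called lower as well (median -1.21), in pRAD7 Δrad23 3 (median -0.01) and in psocs Δrad23 6 (median -0.49), with none higher. The interaction with pRAD7 was called higher for 9 of the 13 in pRAD7 Δrad23 (18.6% of all genes) and for 3 in psocs Δrad23 (7.50% of all genes).

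No tested protein subunit of RNase P or of the related RNase MRP was called higher at 60 min, as *RPR1* was in the Δrad23 strains. Of 11 listed, 8 were tested, and 7, 7, 3 and 5 were called lower at 60 min in pRAD7, psocs, pRAD7 Δrad23 and psocs Δrad23, with medians of -1.05, -1.14, -0.47 and -0.71. The 3 of 8 in pRAD7 Δrad23 are near the 28.2% of all genes called lower there. In pRAD7 *POP8* changed by -2.40 ± 0.45, *POP1* by -1.49 ± 0.12, *POP3* by -1.21 ± 0.28 and *SNM1*, a subunit of RNase MRP, by -1.08 ± 0.18. Of 10 telomerase and telomere-end proteins only 3 were tested, and 2 were called higher and none lower in each strain, in pRAD7 the telomere-capping gene *STN1* (0.52 ± 0.14) and the telomerase subunit gene *EST3* (0.31 ± 0.13).

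Of 15 genes for termination and end processing of small RNAs 13 were tested, and in pRAD7 4 were called higher and 6 lower (median -0.22), near the shares of all genes (28.7% and 36.1%). The genes called lower included *MTR4* (-2.45 ± 0.24), a helicase that feeds the nuclear exosome, *RRP6* (-2.02 ± 0.22), an exonuclease of that exosome, *LHP1*, the yeast La protein (-2.19 ± 0.22), and *RNT1*, the RNase III that cuts snoRNA precursors (-2.19 ± 0.21). In psocs the counts were 5 higher and 6 lower, in pRAD7 Δrad23 3 and 5, and in psocs Δrad23 4 and 5. All 13 listed exosome and exonuclease genes were tested, with 12, 11, 6 and 8 called lower in the same order of strains and none higher (medians -0.97, -1.07, -0.41 and -0.76), among them in pRAD7 *RRP43* (-1.39 ± 0.35), *RRP40* (-1.29 ± 0.21), *RRP45* (-1.23 ± 0.15) and *MTR3* (-1.14 ± 0.24). Of 14 transcription factors of small RNA promoters 12 were tested, with 5, 5, 7 and 5 called lower and 0, 2, 0 and 0 higher. In pRAD7 and psocs 5 of 12 is near the 36.1% and 34.0% of all genes called lower. In pRAD7 these included *TBF1*, which binds snoRNA promoters (-1.34 ± 0.18), *RAP1* (-1.06 ± 0.15), *SPT15*, the TATA-binding protein (-0.87 ± 0.17), and *TFC4* of the RNA polymerase III factor TFIIIC (-0.74 ± 0.15).

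The annotated neighbours of each gene, by the R64 gene table, were compared next, since none of the 9 genes overlaps another annotated gene. *RPR1* lies between *TIM9* and *PXP1*. *PXP1* rose at 60 min in all 4 strains (0.70 ± 0.19 to 1.09 ± 0.23), also where *RPR1* was not called, and *TIM9* was called in psocs (0.66 ± 0.18) and psocs Δrad23 (0.53 ± 0.22) but not in pRAD7 Δrad23 (0.19 ± 0.22). For neither was the response in a Δrad23 strain called different from that in pRAD7. *SNR13* lies between *RPL27B* and *TRS31*, both of which fell in every strain at 60 min (-1.75 ± 0.26 to -1.23 ± 0.22, and -0.89 ± 0.15 to -0.67 ± 0.12). *SNR4* lies next to *RPS26B*, which fell in every strain at 60 min (-2.79 ± 0.27 to -2.46 ± 0.33) while *SNR4* was not called, and next to *PMD1*, which also fell in every strain.

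*SNR11* lies next to *RPL36A*, which fell at 60 min in all 4 strains (-1.53 ± 0.19 in pRAD7 to -0.69 ± 0.23 in pRAD7 Δrad23), opposite to *SNR11* in the Δrad23 strains. *SNR33* lies beside the tRNA gene *SUF16*, which rose at 60 min in pRAD7 Δrad23 (1.95 ± 0.23) and psocs Δrad23 (0.96 ± 0.23) and fell in pRAD7 (-0.51 ± 0.19), while *SNR33* was not called in the Δrad23 strains. The probe set of *SUF16* bears a suffix that marks a family of similar sequences. *SNR33* also borders *CTO1*, and *SNR41* lies between *ASR1* and *SNR70*; *CTO1* and *ASR1* were too dim to test, and *SNR70* is described above. *CMC4* and *SNR161*, the other neighbours of *SNR11* and *TLC1*, were not analysed here. *SNR67* and *SNR128* lie next to *SNR53* and *SNR190*, which had signals of 6.74 to 20.6 and 6.77 to 10.5 over all arrays, around the floor below which values were raised to it, and gave no test. On their other sides *RML2* rose at 60 min in pRAD7 (0.26 ± 0.10), where *SNR67* fell, and *DAS1*, beside *SNR128*, was called in none of the 4 strains. *CSG2*, beside *TLC1*, was called after UV once, at 15 min in psocs (0.38 ± 0.14, adjusted p = 0.0403).

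Over the 12 group means, the profile of *SNR128* was most like that of *SNR13* among the members (Pearson r = 0.95), and *SNR33* and *TLC1* were near both (0.77 to 0.85). *SNR67* had 0.809 with *SNR128* and 0.715 with *SNR13*. *RPR1* was most like *SNR11* (0.74) and had no positive relation to *SNR13* (-0.08), while *SNR41* was at most 0.43 with any other member. Among all tested genes those nearest to *SNR13* were *DSE3* (0.97), *PXR1* (0.97) and *NOP6* (0.97), and those nearest to *SNR128* were *RSA3* (0.98), *EDC3* (0.97) and *CSL4* (0.97). For *SNR67* they were *NCW1* (0.92), *CCW12* (0.92) and *ACT1* (0.92), for *SNR33* *PDC1* (0.96), *DED81* (0.96) and *YHB1* (0.96), and for *SNR11* the RNA gene *YNCD0028W* (0.96), *SEC22* (0.96) and *YPT31* (0.94). For *RPR1* they were *GIP4* (0.94), *RRG7* (0.93) and *TIM18* (0.92), and for *TLC1* *KTR3* (0.96), *ALG8* (0.96) and *HXT2* (0.96). *SNR4* was nearest to *KRE9* (0.93), *LSO2* (0.91) and *LSM12* (0.90), and *SNR41*, with the weakest likeness, to *ABF1* (0.81), *SNR51* (0.81) and *ATP22* (0.79). These correlations describe 12 means that share arrays and treatments, over 4242 candidates, and carry no test.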

How the data were processed

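The deposited intensities are MAS5 signals on a linear scale, which the authors made in Affymetrix Expression Console with each array scaled to 1 trimmed mean (the middle 96% of the deposited values averaged 500.3 to 500.5 on every array); their versions were not stated in the sources read. Of 9335 probe sets, 60 were controls, 6504 had 1 gene name, 328 several and 2443 none, and the platform's names were updated through the R64 gene table. The brightest probe set stood for a gene. Values under 8.50, the 10th percentile, were set to it, log2 was taken, and arrays were centred on their medians (shifts from -0.33 to 0.13). Genes with a mean below the 25th percentile (6.53) were left out. Group means of all 30 arrays were fitted in R 4.3.3 by limma 3.58.1, with an intensity trend in eBayes, and 22 comparisons were taken. The fit was also run on simulated data with independent noise and known changes in a small share of the genes. That run does not show how well changes are recovered where as many genes move as here. Precision is set by how many arrays there were, and for a UV change in pRAD7 the 9 genes had a median standard error of 0.19. No 2 arrays held identical values. Figures were drawn with matplotlib 3.10.9.

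The alternatives were no filter, a filter at the 50th percentile, no floor, values as deposited, quantile normalization, the compared groups alone, a replicate block, every probe set, no trend and each array left out. A fit without the 2 arrays with a low stress response was added after seeing the data. The members and lists were chosen with earlier results of these data known. The text names all members, their annotated neighbours, the 3 genes most like each and, per list, the called genes with the largest change in pRAD7 at 60 min; *SNR5*, *SNR6*, *SNR52* and *SNR70* outside these rules were chosen after their values were seen. No sequence is shown.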

Additional observations from a re-analysis of the deposited data

Results flagged for a closer look

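In 7 cases a member's response to UV at 60 min differed from that in pRAD7 by the test of the difference itself (limma interaction, adjusted over the 4242 genes). In pRAD7 Δrad23 these were *SNR67* (2.07, adjusted p = 0.0136), *RPR1* (1.46, adjusted p = 0.0286), *SNR11* (1.03, adjusted p = 0.00549) and *SNR128* (1.01, adjusted p = 0.00394). In psocs Δrad23 they were *SNR67* (2.59, adjusted p = 0.00973), *RPR1* (2.09, adjusted p = 0.0098) and *SNR11* (0.83, adjusted p = 0.0433). All 7 were positive: *SNR67* and *SNR128* were called lower at 60 min in pRAD7 and not in pRAD7 Δrad23, *SNR67* also not in psocs Δrad23, and *RPR1* and *SNR11* were called higher in both Δrad23 strains and not in pRAD7. The 18S ribosomal RNA and tRNA signals were high on the same Δrad23 arrays, and their part in these differences was not tested. Groups of 2 or 3 arrays were too small for the test of a single array's gap to its group, and the values with each array left out are given above and below.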

How the results depend on the processing

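The 49 called values of the members kept their sign under every alternative run. All 49 were still called without the floor, without the trend and with the replicate block. No filter on dim genes left 48 called, quantile normalization 46, the deposited values 40 and the compared groups alone 38. With every probe set tested all 49 were called too, but *TLC1* was counted there on its brighter probe set only. On the other probe set *TLC1* was not called at 15 min in pRAD7 (0.13) or psocs (0.27). Nor was it called there for untreated pRAD7 Δrad23 against pRAD7 (0.48). When single arrays were left out, 227 refitted values were still called and 56 were not; the cause was not tested.

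Only 3 members, *SNR4*, *SNR11* and *SNR67*, passed the stricter filter. All 12 called values that could be tested there stayed called, and the counts dropped because the other members were filtered out. At 15 min they went from 2 to 1 in pRAD7 and from 1 to 0 in psocs, and at 60 min from 5 to 1 in pRAD7, 4 to 0 in psocs, and 5 to 1 in each Δrad23 strain. Between 15 and 60 min they went from 6 to 2 in pRAD7, 4 to 0 in psocs, 3 to 1 in pRAD7 Δrad23 and 5 to 0 in psocs Δrad23. For untreated pRAD7 Δrad23 against pRAD7 the count went from 1 to 0, and for the response of pRAD7 Δrad23 at 60 min against that of pRAD7 from 4 to 2. As deposited, the 15 min counts were 1 in pRAD7, 0 in psocs and 0 in psocs Δrad23, and untreated pRAD7 Δrad23 had 2. After quantile normalization they were 1 in pRAD7 and 0 in psocs Δrad23 at 15 min. With the compared groups alone they were 1 in pRAD7, 0 in psocs and 0 in psocs Δrad23 at 15 min, 3 in pRAD7 Δrad23 at 60 min, 3 in psocs Δrad23 between 15 and 60 min, and 0 for untreated pRAD7 Δrad23. Without the 2 arrays with a low stress response the count between 15 and 60 min in psocs Δrad23 was 2. Apart from those under the stricter filter, the cause of these shifts was not tested.

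With each array left out in turn, the 15 min counts ranged from 0 to 1 in pRAD7, psocs and psocs Δrad23. At 60 min they were 5 throughout in pRAD7, and ranged from 3 to 5 in psocs, 2 to 4 in pRAD7 Δrad23 and 3 to 4 in psocs Δrad23. Between 15 and 60 min they were 6 in pRAD7 and ranged from 4 to 5 in psocs, 2 to 3 in pRAD7 Δrad23 and 2 to 4 in psocs Δrad23. The untreated count in pRAD7 Δrad23 ranged from 0 to 1, and the counts of differing responses at 60 min from 2 to 5 in pRAD7 Δrad23 and 0 to 3 in psocs Δrad23. Where an array left a group with 1, that array was taken to vary like the other groups.

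Same-numbered arrays deviated together in 12 of 30 pairs (correlation over 0.1, from -0.343 to 0.507), so the number does not pair them over the series. For untreated and 60 min arrays of psocs all 3 pairs were over it (0.507, 0.179 and 0.339). The replicate block raised the count at 60 min from 4 to 5 in psocs (*SNR67*, -0.83, adjusted p = 0.0489) and for the response of pRAD7 Δrad23 from 4 to 5 (*SNR33*, 0.57, adjusted p = 0.0486), and left the other counts of members as they were.

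Over all genes, the split of calls into higher and lower moved with the scaling, given here as the percentage higher. As deposited it was 46.2% at 15 min and 60.3% at 60 min in pRAD7 (62.1% and 44.3% with centring), 50.5% and 59.3% in psocs (63.6% and 47.6%), 29.0% and 34.5% at 15 min in pRAD7 Δrad23 and psocs Δrad23 (59.9% and 60.5%), and 69.2% and 64.5% between 15 and 60 min in pRAD7 and psocs (36.3% and 40.9%). It was 68.3%, 62.3% and 56.2% for untreated pRAD7 Δrad23 against pRAD7 and psocs Δrad23 against psocs and pRAD7 (52.9%, 47.7% and 40.9%), and 21.1% and 15.9% for the responses of pRAD7 Δrad23 and psocs Δrad23 at 60 min (61.9% and 66.5%). After quantile normalization it was 50.1%, 52.8%, 42.3% and 46.9% at 15 min in pRAD7, psocs, pRAD7 Δrad23 and psocs Δrad23, 51.9% between 15 and 60 min in pRAD7, and 39.5% and 37.8% for those responses. With the compared groups alone the called genes went from 626 to 11 and from 716 to 67 at 15 min in pRAD7 Δrad23 and psocs Δrad23, from 1859 to 1206 between 15 and 60 min in psocs Δrad23, and from 51, 44 and 22 to 16, 9 and 38 in the untreated Δrad23 comparisons named above, which were 82, 69 and 48 as deposited; the last was 44 after quantile normalization and 38 with the block. Without the low-stress arrays 1068 genes in place of 1859 were called between 15 and 60 min in psocs Δrad23, and the stricter filter gave 954 in place of 1433 at 15 min in psocs and 0 in place of 1 between untreated psocs and pRAD7.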

Other observations

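*SNR52*, a box C/D snoRNA gene which like *RPR1* is transcribed by RNA polymerase III, was left out of the tests as dim, and its values are given without one. Its signal was between 8.78 and 21.4 on the untreated arrays, and 13.4 to 21.2 at 60 min in pRAD7 and psocs. At 60 min it was 329 and 339 in pRAD7 Δrad23 and 119 and 110 in psocs Δrad23, above every other array. *SNR6*, the U6 small nuclear RNA and also a product of RNA polymerase III, was dim as well: it read 78.5 and 111 at 60 min in pRAD7 Δrad23, 53.7 and 38.0 in psocs Δrad23, and at most 54.9 on any other array. *SNR5*, made by RNA polymerase II, read 549 and 656 at 60 min in pRAD7 Δrad23 and 312 and 350 in psocs Δrad23, and at most 209 on any other array. These genes were picked after their values were seen, and the 18S ribosomal RNA and tRNA signals given above were high on the same arrays.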
